A study of Mus musculus with 2 samples.

Results

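Amino acid transporters are the carriers that move amino acids across the plasma membrane and out of lysosomes. They belong to several solute carrier (Slc) families, which differ in substrate, in the ion that drives transport and in whether they import or exchange. Growing cells take up glutamine and essential amino acids through them, and the supply is read out by the mTORC1 kinase and by the Gcn2-Atf4 amino acid response, which in turn raises transcription of several carriers. The genes described here were chosen by name and not by level: all array probes named for the Slc1a, Slc3a, Slc7a, Slc36a, Slc38a or Slc43a families, together with Slc6a6, Slc6a9, Slc6a14, Slc16a10 and Slc15a2. This gave 42 gene names on 77 probes, of 19504 genes with a symbol and 41174 probes on the array. One of the 42 names, Slc7a6os, is the gene on the opposite strand of Slc7a6 and encodes no amino acid carrier, so that 41 carriers or carrier subunits remain.

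The material was 2 tumours, called tumour 1 and tumour 2, that grew under the skin of C57BL/6J mice after injection of RMS3, a single mouse line the labels describe as a PRMS cell line. The labels give the sex as male. Each injection held 1000000 cells in 200 µl of PBS, and tumours were removed 2 weeks later. The harvest text calls them metastatic, while every other label places them at the injection. Both form 1 group, with no treated, uninjected or cultured counterpart, and the labels do not say whether they grew in separate mice. Bulk RNA of each tumour was hybridised to 1 single-colour array, so host cells are part of the signal, and fewer cells of a type cannot be told apart from less RNA per cell.

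Levels are log2 of the processed signal relative to the 75th percentile of the same array (995.0 signal units on array 1 and 901.9 on array 2). They can be compared between the tumours for a probe, but not between probes. A difference is always tumour 2 minus tumour 1. With 1 tumour on each side no test is possible, and "called" means at least 2-fold apart. Array 1 carried 1128 spots with an outlier flag against 69 on array 2, and differences between the arrays were shifted around many of them. Only spots away from the flags of array 1, and not themselves flagged on array 2, were used, 72.2% of the spots that are not controls. On these, 11138 genes with a symbol were detected in both tumours, with a median difference of 0.02 and 5th and 95th percentiles of -0.72 and 0.77. Probes printed several times give the error of the difference of a spot within these arrays, a standard deviation of 0.32 for detected probes below a level of -3, 0.24 from -3 to 0 and 0.19 above. The spread between hybridisations or between tumours is not covered by it. Of 10 skeletal muscle markers 7 were measured away from flags and all 7 were detected, Myod1 at -5.24 in tumour 1 and -5.59 in tumour 2 near the lowest levels called on these arrays (-5.78 and -6.19), and Myog at -2.24 and -2.11.

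Of the 42 genes 36 had a probe away from flags, and 21 of these (58.3%) were well above background in both tumours, against 69.4% of 16054 genes in all. The detected genes were Slc3a2, Slc7a1, Slc7a5, Slc7a6, Slc7a6os, Slc7a8, Slc7a11, Slc43a1, Slc43a2, Slc43a3, Slc1a3, Slc1a4, Slc1a5, Slc38a1, Slc38a2, Slc38a4, Slc36a1, Slc36a4, Slc6a6, Slc6a9 and Slc16a10. Slc15a2 was above background in tumour 1 only and Slc7a2 in tumour 2 only. In neither tumour well above background were 13 genes: the glutamate carriers Slc1a2, Slc1a6 and Slc1a7, the proton-coupled carriers Slc36a2 and Slc36a3, the glutamine carriers Slc38a3 and Slc38a5, the broad-range carrier Slc6a14, and Slc7a10, Slc7a12, Slc7a13, Slc7a14 and Slc7a15. The remaining 6 (Slc1a1, Slc3a1, Slc7a3, Slc7a4, Slc7a7 and Slc7a9) had probes only beside flags and are described separately.

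Across the 21 detected genes the median difference was -0.01, with 10 higher in tumour 2 and 11 in tumour 1, and 14 lay within 0.50 of 0 on the log2 scale. One gene, Slc1a3, was called towards tumour 1, where 1.97% of all detected genes were called. No gene was called towards tumour 2, where the share of all detected genes was 2.6%. The differences of the members ran from -1.73 (Slc1a3) to 0.90 and had a standard deviation of 0.62, against 0.51 over all detected genes. That excess depends on Slc1a3, so it does not show a wider spread among the other members. The plot of probe levels shows the pairs of values.

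**Figure D1:**
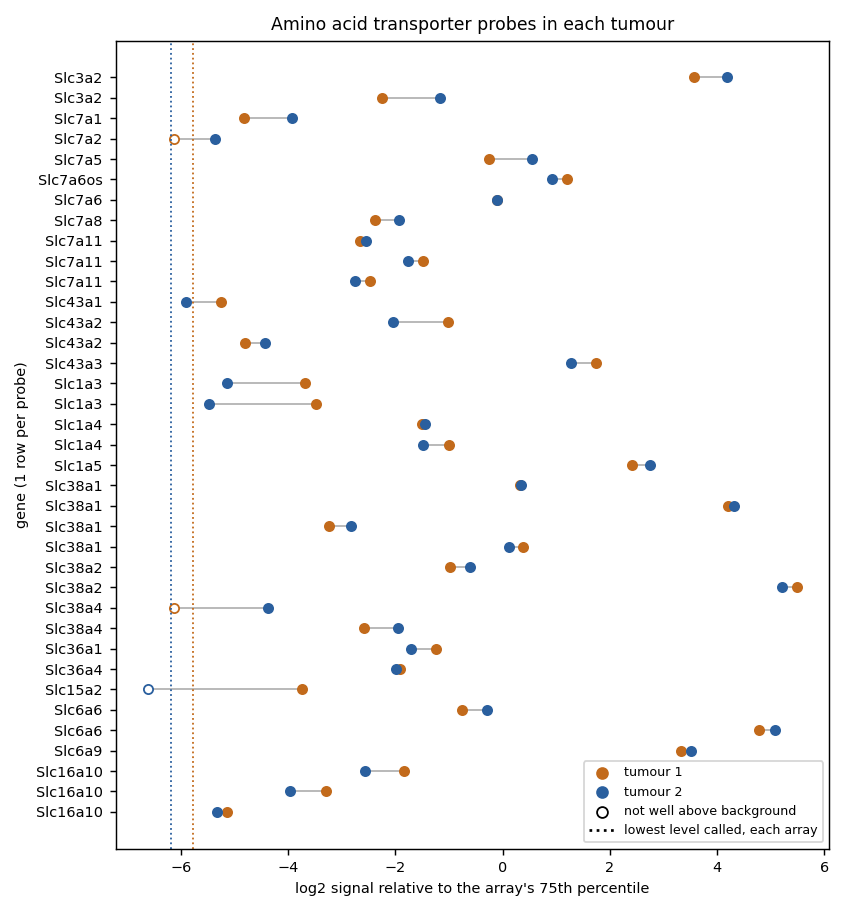
Level of each transporter probe away from flags that was well above background in at least 1 tumour, on a log2 axis relative to the 75th percentile of the array; 1 row per probe, orange for tumour 1, blue for tumour 2, open symbols for a value not well above background, dotted lines for the lowest level called on each array (-5.78 and -6.19). Both Slc1a3 probes lie lower in tumour 2, while the Slc7a6 pair coincides; rows cannot be compared with each other.

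The heavy chain of the heteromeric exchangers and the large neutral carrier were higher in tumour 2. Slc3a2, known as CD98 or the 4F2 heavy chain, brings several Slc7 light chains to the cell surface. Its 2 probes lay at 3.58 and -2.26 in tumour 1 and at 4.18 and -1.18 in tumour 2. The first was thus 0.60 and the second 1.08 higher in tumour 2, and their median, 0.84 (1.79-fold), stayed under the limit. Slc7a5 (LAT1), the light chain that exchanges glutamine for leucine and other large neutral amino acids, lay at -0.26 in tumour 1 and 0.55 in tumour 2. Tumour 2 was thus 0.80 higher (1.75-fold) on 1 probe, and the level over both was 0.14 ± 0.57 (SD, n = 2). Both genes were beyond the 95th percentile of all detected genes (0.77), and both differences exceeded the within-array error of a spot. The brighter Slc3a2 probe alone (0.60) was below that percentile. With all unflagged spots Slc3a2 was at 0.64 and Slc7a5 at 0.61, both below the 95th percentile there (1.03). With the normexp correction they were at 0.67 and 0.69. That correction adds 50 units to every signal, which by itself draws differences of dim probes towards 0. Muscle markers were higher in tumour 2 as well, 6 of the 7 detected (summed level 2.27 in tumour 1 and 3.21 in tumour 2), with Acta1, Actc1 and Chrna1 lacking a probe away from flags. So were all 3 erythroid markers detected of 5 listed (summed level 3.87 and 4.77) and 2 of the 3 keratinocyte markers detected of 6 listed (-3.02 and 0.01), Krt5 at -5.21 and -1.66 and Krt14 at -4.26 and -0.62, with Dsg3 and Trp63 above background in neither tumour. A summed level is the log2 of the summed linear levels of a list's detected genes, so its brightest probes weigh most. The muscle and erythroid sums mostly follow Myh8 (2.02 and 2.99) and Hba-a1 (3.82 and 4.72). Gene by gene, the 7 muscle markers had a median of 0.50, with Myog at 0.13 and Myod1, lower in tumour 2, at -0.35. T cell and kidney or gut lists had 1 gene detected each. The part of these cells in the differences described here was not tested.

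The other light chains measured had smaller differences. Slc7a8 (LAT2), a second large neutral exchanger, lay at -2.38 in tumour 1 and -1.93 in tumour 2 (0.46). It rests on 1 probe, as Slc7a5 does, and the gap between these genes is near the spot error, so it was not resolved. Slc7a6 (y+LAT2), which exchanges cationic for neutral amino acids, was level at -0.11 in both tumours on its detected probe, and its other probe away from flags was not above background in either. Slc7a11 (xCT), the cystine-glutamate exchanger that feeds glutathione synthesis, was measured by 3 probes. They lay at -2.65, -1.49 and -2.48 in tumour 1 and at -2.55, -1.76 and -2.75 in tumour 2. The differences of 0.10, -0.27 and -0.26 were close to the spot error of 0.24, so no difference of Slc7a11 was resolved. Whether heavy and light chains differ in this was not tested. A further probe of Slc7a11, beside a flag, was above background in tumour 2 only. Slc7a6os lay at 1.20 in tumour 1 and 0.93 in tumour 2.

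Slc7a11 and Slc3a2 encode the chains of 1 exchanger and are both known targets of Atf4, a factor of the amino acid response described further on, and the stretches just before their start sites are shown for that reason. They are the bases from -100 to -1 of the RefSeq start site (GRCm38.p6), 5′ to 3′ on the gene's strand, which is the minus strand for both, at chr3:50443614-50443713 and chr19:8713898-8713997. Capitals mark the core of the amino acid response element, searched as TGATGNAA on both strands.
Slc7a11: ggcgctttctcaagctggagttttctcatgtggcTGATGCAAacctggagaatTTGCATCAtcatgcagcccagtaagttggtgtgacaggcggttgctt
Slc3a2: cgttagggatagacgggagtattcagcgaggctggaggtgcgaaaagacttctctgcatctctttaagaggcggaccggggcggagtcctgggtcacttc

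The window of Slc7a11 holds the core 2 times, once on each strand, beginning at -66 and -47, and the window of Slc3a2 holds none. Promoter windows of 300 bases (250 before and 50 after the start) were given for 30 of the 42 genes, 43 windows in all. The core was in 4 of them (9.3%), belonging to Slc7a11, Slc1a4 and Slc7a7, against 3.97% of 32851 windows of all genes. An E-box, CACGTG, was in 6 windows (14.0%, against 7.15%), those of Slc1a6, Slc1a7, Slc7a14, Slc36a1, Slc38a5 and Slc43a1, and the antioxidant response core TGACNNNGC in 8 (18.6%, against 12.4%), those of Slc6a9, Slc7a1, Slc7a6, Slc36a1, Slc38a2 and Slc43a1. In Slc36a1 an E-box and an antioxidant core overlap. Both were searched on both strands. Windows of the same gene can overlap, and a shared site is then counted in each. The Slc7a7 response core at -243 of a window is the site at -1 of the next. Likewise the Slc7a6 antioxidant core at -1 of a window is the site at -68 of the next. These matches describe the letters in the windows. Of the carriers with the response core, Slc7a11 and Slc1a4 had probes that pointed in opposite directions, and Slc7a7 had no probe away from flags.

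Cationic amino acid carriers import arginine and lysine, and those with a probe away from flags were dim. Slc7a1 (CAT1), the widely expressed member, lay at -4.83 in tumour 1 and -3.93 in tumour 2, so that tumour 2 was 0.90 higher (1.87-fold) on 1 probe. Its processed signals were 35.0 and 59.3 units, and the difference was 0.43 with the normexp background correction. At such signals the offset of 50 units in that correction lowers a difference by itself. Slc7a2 (CAT2), inducible in macrophages, was well above background in tumour 2 only (-5.36). Tumour 2 was at least 1.34-fold higher, a bound against the lowest level called on array 1 or the dim probe's own level, whichever was higher. Such a bound does not include the error of a spot, so a small one is not a resolved difference. Of 8 macrophage markers 5 were detected, 3 higher in tumour 2 and 2 in tumour 1, with a summed level of 1.73 in tumour 1 and 1.68 in tumour 2. Adgre1 was the farthest apart of these, at -0.51 and -1.15.

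The Slc43 family holds carriers that move large neutral amino acids by facilitated diffusion, and none of its 3 genes was called. Slc43a3, which carries purine nucleobases rather than amino acids, lay at 1.74 in tumour 1 and 1.28 in tumour 2 (-0.46). Slc43a1 (LAT3) lay at -5.25 and -5.91, a difference of -0.66 close to the lowest levels called. It was -0.14 with the normexp correction, whose offset of 50 units exceeds both signals of Slc43a1. Slc43a2 (LAT4) was the 1 gene of 9 with several detected probes whose probes differed by 2-fold or more among themselves. A probe for a cDNA clone lay at -1.02 in tumour 1 and -2.04 in tumour 2 (-1.02), while the probe for the RefSeq transcript lay at -4.81 and -4.43 (0.38). The direction of Slc43a2 was therefore not settled. Slc16a10 (TAT1), a carrier of aromatic amino acids, was lower in tumour 2 on all 3 probes, at -3.30, -5.15 and -1.85 in tumour 1 and -3.97, -5.33 and -2.56 in tumour 2. Its differences were -0.67, -0.18 and -0.71, and the first and last exceeded the spot error. With the normexp correction and its offset, which lowers differences of dim probes, the gene's difference was -0.35.

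The largest difference among the detected carriers belonged to Slc1a3 (GLAST, EAAT1), a sodium-driven importer of glutamate and aspartate best known from astrocytes. Its 2 detected probes lay at -3.69 and -3.48 in tumour 1 and at -5.15 and -5.48 in tumour 2. In processed signal these were 77.1 and 89.0 units against 25.5 and 20.2. Tumour 1 was higher on both, by 2.74-fold and 3.99-fold, and the median difference was -1.73 (3.31-fold), a level of -4.45 ± 1.22 (SD, n = 2). A probe for another clone of the gene was not above background in either tumour. The spots around the 2 probes had median differences of -0.17 (58 spots) and -0.05 (70 spots), so the surroundings did not share the difference. On array 2 both levels came near the lowest one called (-6.19), and with the normexp correction the difference was -0.63, under the limit. The offset of 50 units in that correction shrinks differences at these signals by itself, so -0.63 cannot show that the difference is weaker.

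Fibroblast and endothelial markers were also higher in tumour 1. Of the 7 fibroblast markers listed 6 were measured and all 6 were higher there, with a median of -0.39 and a summed level of 4.66 in tumour 1 and 4.19 in tumour 2, and so were 6 of 7 endothelial markers (3.39 and 2.96). Of the astrocyte and neuron list Gfap and Slc17a7 were well above background in neither tumour, and 5 of 7 were detected, 3 of them higher in tumour 1 (median -0.10). The astrocyte genes Aldh1l1 (-0.29 and -0.99) and Aqp4 (-1.93 and -2.03) were among these 3, while the summed level, 3.04 in tumour 1 and 3.88 in tumour 2, follows the neuronal gene Syn1 (2.48 and 3.65). The part of these cells in the difference of Slc1a3 was not tested.

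The neutral carriers of the same family showed no such gap. Slc1a5 (ASCT2), an exchanger that takes up glutamine, lay at 2.41 in tumour 1 and 2.75 in tumour 2 (0.33). Slc1a4 (ASCT1), which carries serine and alanine, lay at -1.50 and -1.01 in tumour 1 and at -1.45 and -1.49 in tumour 2, so that its 2 probes pointed in opposite directions (0.05 and -0.48).

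Sodium-coupled neutral carriers of the Slc38 family import glutamine and alanine. Slc38a1 (SNAT1) had 4 usable probes, all detected, with differences of 0.42, 0.12, 0.02 and -0.26 and a median of 0.07. One of them, for the RefSeq transcript, lay at 4.21 in tumour 1 and 4.33 in tumour 2. Slc38a2 (SNAT2), a carrier induced by amino acid shortage, lay at -0.99 and 5.49 in tumour 1 and at -0.61 and 5.21 in tumour 2, again with opposite directions (0.38 and -0.29). Slc38a4 (SNAT4), best known from liver and placenta and imprinted in mouse, lay at -2.59 in tumour 1 and -1.96 in tumour 2 (0.63). Its second probe was above background in tumour 2 only, where it was at least 2.63-fold higher.

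Proton-coupled and single-gene carriers completed the set. Slc36a1 (PAT1), a lysosomal exporter of small amino acids, lay at -1.25 in tumour 1 and -1.70 in tumour 2 (-0.45) on its detected probe. When a second, dimmer probe counted as detected the sign of Slc36a1 turned, to 0.32, so its direction was not settled. Its relative Slc36a4 lay at -1.91 and -1.99. Slc6a6, the taurine carrier, lay at 4.78 and -0.77 in tumour 1 and at 5.08 and -0.30 in tumour 2, differences of 0.29 and 0.47. Slc6a9 (GlyT1), a glycine importer, was nearly equal at 3.33 and 3.51. Slc15a2 (PepT2) imports di- and tripeptides. One of its probes lay at -3.75 in tumour 1 and was not well above background in tumour 2 (-6.62), which puts tumour 1 at least 5.42-fold higher. The processed signals were 73.9 and 9.18 units, and the spots around it had a median difference of 0.12. Its other probe was above background in neither tumour, so the bound for Slc15a2 rests on a single spot on each array.

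**Figure D2:**
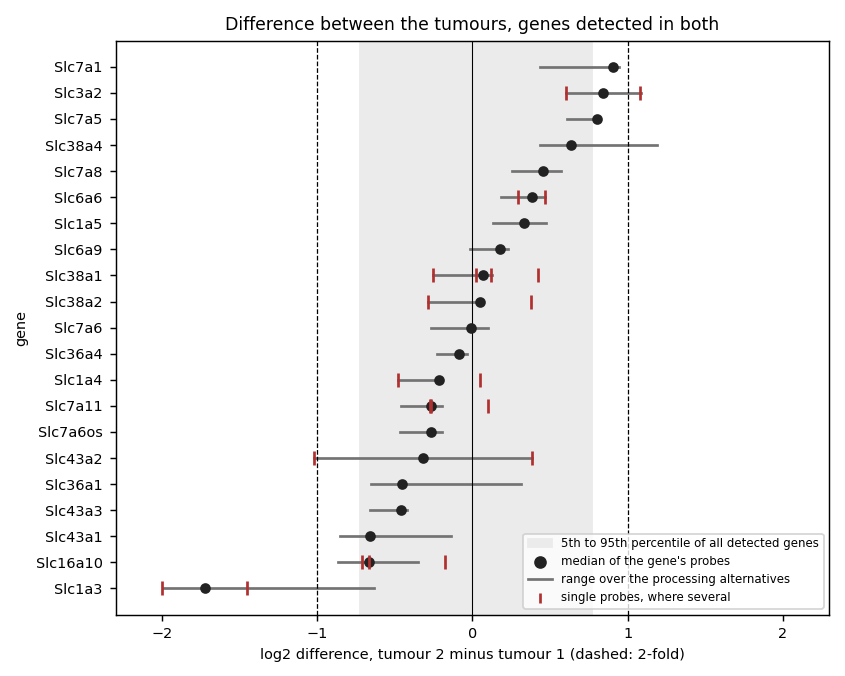
Difference of each of the 21 genes detected in both tumours (log2, tumour 2 minus tumour 1); black points are the median over a gene's probes, red ticks the single probes where there are several, grey lines the range over the processing alternatives, the grey band the 5th to 95th percentile of all detected genes (-0.72 to 0.77), dashed lines 2-fold. Slc1a3 lies beyond 2-fold towards tumour 1, and Slc7a1, Slc3a2 and Slc7a5 lie between the band and the 2-fold line towards tumour 2.

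The genes with probes beside flags need a separate reading. Slc7a3 (CAT3), a cationic carrier, gave 343.0 signal units in tumour 1 and 1512.7 in tumour 2, differing by 2.28 (4.87-fold). The 51 unflagged spots around it had a median difference of 1.38, whereas the 6 of them away from flags had 0.02. For Slc1a1 (EAAT3), a glutamate and cysteine importer, the spot differed by -0.10 in an area where 50 unflagged spots had a median of 2.12. The 10 of them away from flags had 2.26, so the distance kept from flags did not remove the shift in that area. Slc7a7 (y+LAT1) lay at 0.48 in tumour 1 and 0.77 in tumour 2 (0.28), and the 56 unflagged spots around it had a median of -0.03. Slc7a4, a relative of the cationic carriers, lay at -5.20 and -5.65. Slc3a1 (rBAT), the heavy chain of the renal cystine carrier, was above background in tumour 2 alone, and its light chain Slc7a9 in neither. The bound for Slc3a1, 1.16-fold, lay within the error of a spot, so no difference was resolved.

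Slc38a2 has probes of both kinds. Of its 4 probes 2 were themselves flagged on array 1 and gave 2.55 and 1.31, against 0.38 and -0.29 for the other two, away from flags. Of the 77 probes 21 lay beside flags, whereas around the 56 others the local median difference stayed between -0.17 and 0.17.

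**Figure D3:**
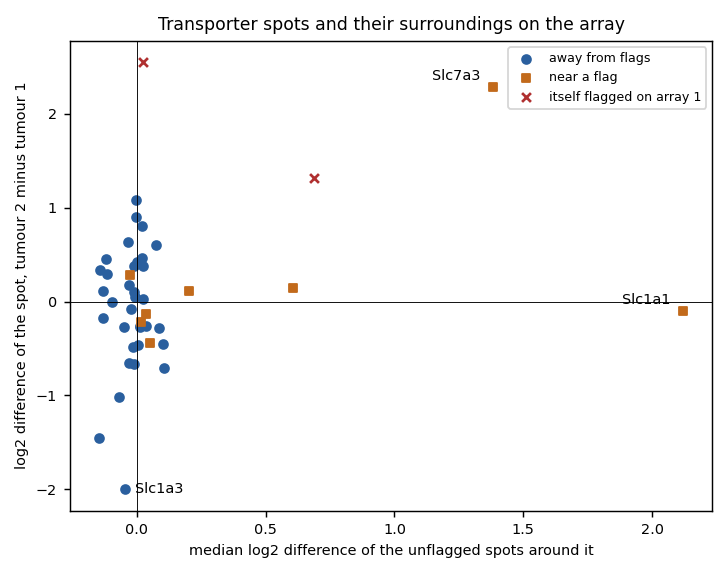
Difference of each transporter spot detected on both arrays (vertical axis, log2, tumour 2 minus tumour 1) against the median difference of the unflagged detected spots within 5 rows and columns (horizontal axis, log2); blue circles are spots away from flags, orange squares spots near a flag, red crosses spots flagged on array 1. Spots away from flags sit near 0 on the horizontal axis, while Slc7a3 (1.38) and Slc1a1 (2.12) lie in areas where the surrounding spots shifted.

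Genes of the amino acid response, most of them targets of Atf4, were mostly higher in tumour 2. Of the 22 listed, 20 were measured away from flags and all 20 were detected. A median of 0.46 was found, and 17 lay higher in tumour 2, while 52.0% of all detected genes were higher there with a median of 0.02. Ddit4, which restrains mTORC1, lay at 5.77 in tumour 1 and 6.96 in tumour 2 and was the 1 gene of the list called (2.28-fold), with Stc2, a secreted glycoprotein, just under the limit (-0.13 and 0.87). Ddit3, the factor CHOP, lay at 2.38 and 2.97. The next genes, and Stc2, were picked after their values were seen. Trib3, a pseudokinase that feeds back on Atf4, lay at 0.51 and 1.32 (0.82), Sesn2, a leucine sensor, at 1.92 and 2.72 (0.80), and Chac1, which degrades glutathione, at 2.21 and 2.98 (0.77). Phgdh, the first enzyme of serine synthesis, lay at 1.40 and 2.15 (0.75), and Asns, asparagine synthetase, at 4.93 and 5.34 (0.42). Eif2ak4, the kinase Gcn2 that senses uncharged tRNA, was lower in tumour 2, at -1.10 and -1.77 (-0.67). Atf3 (-0.12) and Nupr1 (-0.09) were also lower by small amounts, and Atf4 itself had no spot away from flags. Among the 17 higher genes, Cebpg (0.03), Psat1 (0.08), Cebpb (0.11) and Pycr1 (0.14) differed by less than the error of a spot. The count was also 17 of 20 with normexp, quantile, loess and median scaling. It was 15 with local centring, 14 with no scaling and 13 with all unflagged spots. In these last settings 36.6% and 36.0% of all genes were higher in tumour 2. As with Slc3a2, muscle markers (summed level 2.27 and 3.21) were higher in tumour 2 too, and their part was not tested. In promoter windows of this list the core TGATGNAA was present in 6 of 24 (25.0%), against 3.97% of windows of all genes. The windows with it belonged to Asns, Atf3, Chac1, Nupr1, Pycr1 and Trib3, of which Atf3 and Nupr1 were lower in tumour 2. The list was made of genes known for this response, so the share is no result about the tumours.

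Genes of mTORC1, of its upstream amino acid sensing and its substrate Rps6kb1, taken as 1 list, were spread evenly. Sesn2 was counted with the amino acid response and not here. Of 26 listed 21 were measured and detected, 12 higher in tumour 2 and 9 in tumour 1, with a median of 0.01. The kinase Mtor lay at 1.20 in tumour 1 and 1.22 in tumour 2, and its partner Mlst8 at 1.81 and 1.88. Nprl3, a subunit of the GATOR complex that inhibits mTORC1, was called towards tumour 2 (-2.59 and -1.49). The differences of Rptor probes had a median of 0.38.

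Enzymes of amino acid and glutathione metabolism had a median of 0.12, with 11 of 18 detected genes higher in tumour 2. Ass1, which makes argininosuccinate from citrulline and so allows cells to produce arginine, lay at 1.45 in tumour 1 and 0.10 in tumour 2 and was the 1 gene called, towards tumour 1 (2.55-fold). Gls2 lay at -2.27 in tumour 1 and -1.42 in tumour 2, and the glutamine synthetase Glul at 1.32 and 1.06.

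Amino acid carriers outside the chosen families were detected in 9 of the 18 cases with a usable probe, against 69.4% of all genes. Of the 9, 4 were higher in tumour 2, against 52.0% of all detected genes. The glycine carrier Slc6a5 and the proline carrier Slc6a7 were above background in neither tumour. Slc6a17, a vesicular carrier of neutral amino acids, was called towards tumour 2 (-3.81 and -2.67), and Slc32a1, the vesicular carrier of GABA and glycine, towards tumour 1 (-2.95 and -3.96). Of all detected genes 2.6% were called towards tumour 2 and 1.97% towards tumour 1. Of the partner proteins, Cd44, of which a variant form binds xCT, lay at 5.63 and 5.50 at the level of the gene. Cltrn, which escorts renal carriers, was above background in neither tumour.

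**Figure D4:**
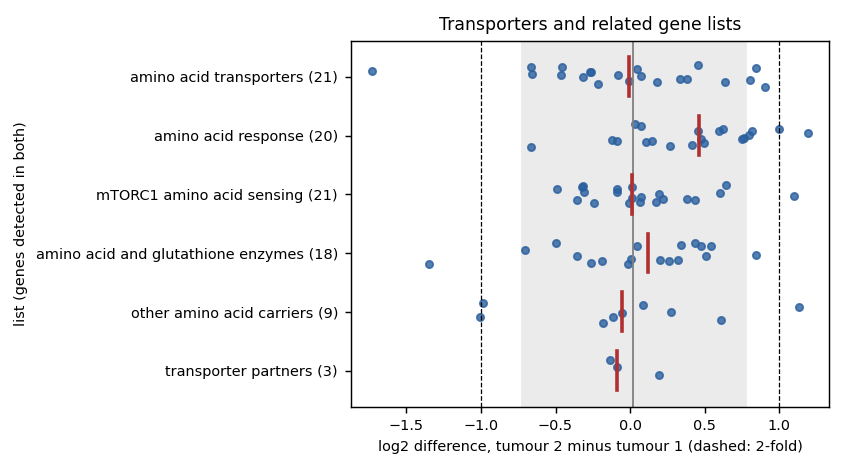
Difference (log2, tumour 2 minus tumour 1) of each gene detected in both tumours in the transporter set and in 5 related lists, with the number of genes in brackets; red bars are medians, the grey line and band the median (0.02) and the 5th to 95th percentile of all detected genes, dashed lines 2-fold. The amino acid response genes have a median of 0.46, while the medians of the other sets lie between -0.09 and 0.12.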

How the data were processed

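Total RNA (1.0 µg per tumour, per the labels) was labelled with Cy3 and read on 1 array per tumour. The deposited intensity values come from Agilent Feature Extraction (9.1.3.1 per the file headers, 8 per the submitters' processing notes), with background subtraction and detrending within the array. The deposited value table equalled the processed signal intensity at all 45018 spots. Its scale is linear and uncentred, with column medians of 63.3 and 67.5.

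The 77 probes were matched by name, and accessions of 60 were in the RefSeq table of GRCm38.p6, used for names. Left out were spots up to 2 rows or columns from those with an outlier flag on array 1 or, for 11 spots, local background above 100 on array 2, and spots themselves flagged on array 2. Log2 signal was centred on each array's 75th percentile. Detection asked for 50% or more of a probe's spots well above background. A gene's difference is the median over its detected probes. Fold limit was 2. Neighbours lay within 5 rows and columns.

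The genes, lists and alternatives were chosen with earlier results of these data known. Any carrier could be named, and from each list its first 3 genes and those called, of which some are not reported here. Alternatives changed the spots used, background correction, scaling, detection and the choice of probe. Software was Python 3.11.15, R 4.3.3 and limma 3.58.1, and the steps were tested on simulated data.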

Additional observations from a re-analysis of the deposited data

How the results depend on the processing

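The median difference of the detected genes, Slc7a6os included, was -0.01 and stayed within -0.24 to 0.11 under all 12 alternatives. The 21 detected genes became 12 in the lower rows, 10 with the brighter 50% of probes and 36 with no filter, and were within 1.5 times of 21 otherwise (25 with all unflagged spots, 28 with the positive and significant flag, 22 on either array alone). Genes called towards tumour 2 (0) became 1 with all unflagged spots (Slc7a3), in the lower rows (Slc3a2, whose second probe alone counts there), with the positive and significant flag and with no filter (Slc38a4 in both). The share of all genes called towards tumour 2, 2.6% at first, was 5.15%, 1.93%, 3.81% and 3.98% in these settings, in the order named. Genes called towards tumour 1 (1) became 0 under normexp correction (offset 50) and in the brighter 50% of probes, where Slc1a3 was not measured. They became 2 with the positive and significant flag, with no filter and with the brightest probe of a gene. The share of all genes called towards tumour 1 moved as well, from 1.97% to 0.646% with normexp and 0.823% in the brighter probes. It was 3.37%, 3.59% and 2.21% in the settings with 2 genes, so the changed counts are no result about the chosen genes. Of 232 values of single genes under alternatives 21 moved by more than the error of a spot and the called gene, Slc1a3, kept its sign. The sign turned under at least 1 alternative for 6 genes (Slc36a1, Slc38a1, Slc38a2, Slc43a2, Slc6a9 and Slc7a6). Local centring was added after seeing the data. Leaving out a tumour gives no difference. The arrays limit precision: 2 hybridisations, no replicate of a tumour, and dim probes near the lowest level called.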
